A study of Macaca mulatta with 17 samples.

Results

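Immediate early genes are transcribed within minutes of a stimulus, from transcription factors already present in the cell and without new protein synthesis, and most of their messages are short-lived. FOS and JUN family proteins pair to form the AP-1 transcription factor, the EGR proteins are zinc finger transcription factors, and in the uterus several of these genes are known to be induced by estrogen, by stretch of the muscle wall and at labour. The 10 members examined here were FOS, FOSB, JUN, JUNB, EGR1, EGR2, EGR3, ATF3, NR4A1 and IER2. They were chosen by name out of 17215 gene names on the array, and each was represented by the brightest probe whose annotation named it.

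RNA came from the uterus of 17 female rhesus macaque offspring, 1 array per animal, each labelled in a single colour. At gestational day (GD) 100, with delivery by caesarian section, there were 5 controls and 5 animals whose mothers had eaten fruit with 400 ug/kg/day of deuterated bisphenol A (BPA), a plastics chemical with estrogenic activity, from GD50 to GD100. At full term (labelled GD165 to 168, here GD165), with vaginal delivery, there were 4 controls and 3 animals whose mothers had been dosed from GD100 to term. Control mothers received the ethanol vehicle. The paper reports stillbirths in both term groups and states that these uteri were kept off the arrays. The term groups here therefore hold liveborn animals only. The part of this selection in the age and BPA comparisons was not tested. Age and mode of delivery changed together, since no GD165 animal came from a caesarian section, and the GD100 animals were euthanized at delivery and the newborns within a day. Differences between the ages therefore cannot be told apart from differences in delivery, in the time to tissue collection or in the days of dosing.

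All 10 members were well above background on all 17 arrays and none was saturated. Levels are given as log2 signal after each array was set to the same 75th percentile; 1 unit is a doubling, and levels of different genes are not compared because each probe has its own brightness. Between 83.8% and 89.0% of spots were well above background on an array, and arrays correlated at 0.974 to 0.995. Of 11 uterine identity genes 8 were well above background on every array, EMX2, PAX8 and ESR1 among them, and PGR, the progesterone receptor, was on 3 arrays only. Skeletal muscle genes set 2 arrays apart: their mean level, relative to each gene's mean over all arrays, was 4.01 in GD165 control 5 and 3.50 in GD165 BPA 5, against at most 1.76 in the other 15. GD165 control 5 was also the only animal on its slide. Results without these animals are given below where they change a call.

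The probes are 60 bases long, and for the genes on which the results turn the opening 30 bases are shown, 5′ to 3′ as deposited, so that the measured message can be looked up. Capitals mark ATTTA, the pentamer of AU-rich elements, which are known to shorten the life of early response messages. It was searched for on the printed strand only.
FOS: tgttactgatcatgcattgttgaggtggtc
JUN: gcccactggaaagtcaaacatttcaaagtt
JUNB: taatatatttgtgtATTTAacagggagggg
EGR1: ttttttgaaacggcagtcctaggtattctc
ATF3: acaaggatgctggctgctgtctgttaaaat
NR4A1, probe used: tagctctccctcccttgccacccaaatgtt
NR4A1, second probe: tctcttcctaccctccttccacatgtacat
The pentamer was present in 1 of the 10 whole member probes, JUNB, and in 8.91% of all 20217 probes. The 2 NR4A1 probes shared no run longer than 6 bases. They are shown together because they gave different results.

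The question of the main comparison was whether these genes differed between the term uterus after vaginal delivery and the GD100 uterus after caesarian section. Of the 10 members, 6 rose at GD165 and 0 fell in the comparison over both treatments, in which the BPA-exposed and the control differences are averaged (limma, Benjamini-Hochberg adjusted p under 0.01). In that comparison 22.4% of all probes were called, 11.3% higher and 11.1% lower. FOSB, JUN, JUNB, EGR1, EGR2 and ATF3 were the 6, with differences of 0.58 to 1.40 log2 units. The median difference of the 10 members was 0.97, against -0.03 for all probes. FOS had the largest difference of the 10, 1.55, and did not pass the test, and EGR3, NR4A1 and IER2 lay between -0.12 and -0.05. In whole tissue, fewer cells of a type and less RNA per cell cannot be told apart.

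**Figure D1:**
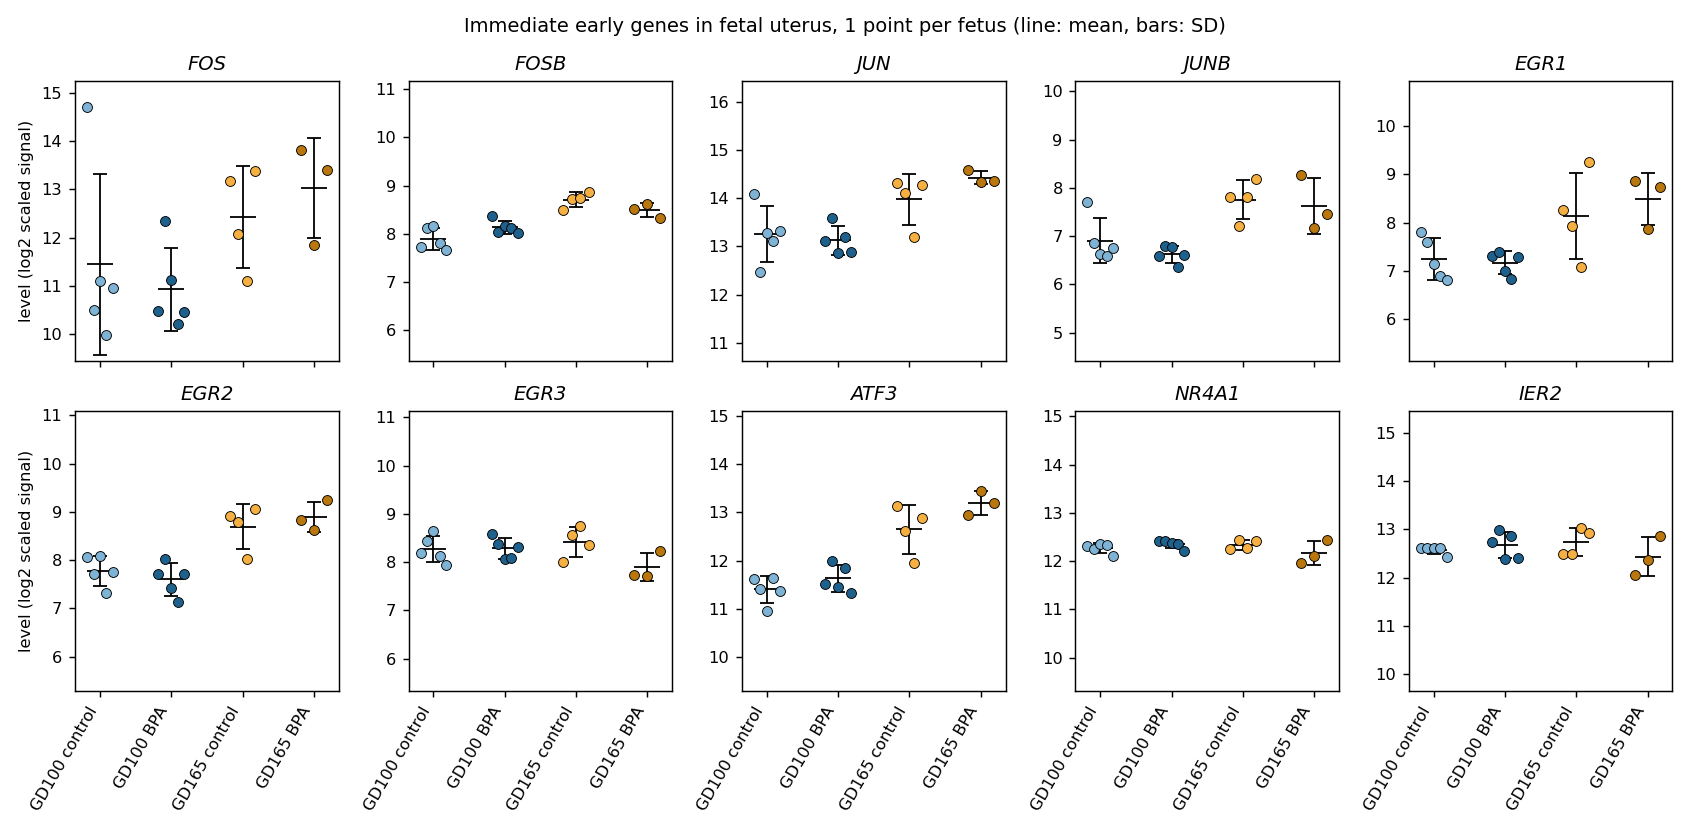
Level of each gene (vertical axis, log2 scaled signal; every panel spans the same number of log2 units) in the 4 groups, with 1 point per animal, a line at the group mean and bars of 1 SD. ATF3 and EGR2 stand higher at GD165, FOS has 1 GD100 control at 14.71 far above the rest of its group, and EGR3, NR4A1 and IER2 show no clear step between the ages.

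ATF3, a stress-induced factor of the ATF/CREB family that also pairs with JUN, had the clearest difference of the members. GD100 controls 1 to 5 had ATF3 levels of 11.61, 11.42, 10.95, 11.65 and 11.38, and GD100 BPA animals 1 to 5 had 11.52, 11.99, 11.45, 11.86 and 11.33. GD165 controls 1, 3, 5 and 6 had 13.13, 12.62, 11.96 and 12.89, and GD165 BPA animals 3, 4 and 5 had 12.94, 13.44 and 13.19. The ages overlapped by a single pair of animals, GD165 control 5 just under GD100 BPA 2. ATF3 was 2.64-fold higher at GD165 (log2 difference 1.40, SE 0.16, adjusted p = 1.2e-05 by limma). It passed with any single animal left out, with differences of 1.32 to 1.52.

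JUN, the principal partner of FOS in AP-1, and JUNB, its relative, rose by similar amounts. GD100 controls 1 to 5 had JUN levels of 14.09, 12.47, 13.28, 13.12 and 13.32, and GD100 BPA animals 1 to 5 had 13.12, 13.60, 12.85, 13.19 and 12.88. GD165 controls 1, 3, 5 and 6 had 14.32, 14.10, 13.19 and 14.28, and GD165 BPA animals 3, 4 and 5 had 14.58, 14.33 and 14.36. Of the 7 GD165 animals, 6 lay above every GD100 animal, and the remaining one, control 5, lay among them. The JUN difference was 1.01 (SE 0.21, adjusted p = 0.0016), a fold of 2.01. JUNB stood between 6.36 and 7.70 in the 10 GD100 animals (median 6.70) and between 7.16 and 8.27 in the 7 GD165 animals (median 7.80). GD100 control 1, at 7.70, was the single early animal inside the JUNB range at term. The JUNB difference was 0.93 (SE 0.19, adjusted p = 0.0015). With slide as a block it was 0.97 and did not pass (adjusted p = 0.0174).

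FOSB, a FOS relative that also pairs with JUN proteins, had a smaller difference with little spread. Its levels were 7.72, 8.12, 8.16, 7.82 and 7.66 in GD100 controls 1 to 5 and 8.36, 8.04, 8.16, 8.11 and 8.02 in GD100 BPA animals 1 to 5. They were 8.50, 8.73, 8.75 and 8.88 in GD165 controls 1, 3, 5 and 6 and 8.51, 8.63 and 8.33 in GD165 BPA animals 3, 4 and 5. Only GD165 BPA 5 and GD100 BPA 1 crossed over between the ages. The difference was 0.58 (SE 0.089, adjusted p = 1.4e-04), and with any single animal left out it was 0.55 to 0.62 and passed.

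EGR1 and EGR2 rose, and EGR3, another zinc finger factor of the same family, did not pass. GD100 controls 1 to 5 had EGR1 levels of 7.81, 7.60, 7.15, 6.90 and 6.81, and GD100 BPA animals 1 to 5 had 7.31, 7.40, 6.997, 6.84 and 7.30. GD165 controls 1, 3, 5 and 6 had 8.27, 7.93, 7.09 and 9.26, and GD165 BPA animals 3, 4 and 5 had 8.86, 7.87 and 8.74. Again 6 of the 7 term animals lay above all early ones, and control 5 was the exception. The EGR1 difference was 1.10 (SE 0.26, adjusted p = 0.0039), a fold of 2.15. It did not pass without GD165 BPA 3 (1.01, adjusted p = 0.0134) or without GD165 BPA 5 (1.04, adjusted p = 0.0132). EGR2 ran from 7.13 to 8.08 at GD100 (median 7.71) and from 8.03 to 9.24 at GD165 (median 8.84), with GD165 control 5 alone inside the early range. Its difference was 1.11 (SE 0.17, adjusted p = 1.5e-04) and passed with any single animal left out. EGR3 averaged 8.27 ± 0.23 at GD100 (SD, n = 10) and 8.19 ± 0.39 at GD165 (n = 7), a difference of -0.12 with a 95% confidence interval of -0.40 to 0.16.

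FOS, the founding member of its family, had the widest range. GD100 controls 1 to 5 had FOS levels of 14.71, 10.50, 11.09, 9.98 and 10.95, and GD100 BPA animals 1 to 5 had 10.49, 12.35, 11.12, 10.21 and 10.46. GD165 controls 1, 3, 5 and 6 had 13.17, 12.08, 11.10 and 13.38, and GD165 BPA animals 3, 4 and 5 had 13.82, 11.85 and 13.41. GD100 control 1 was the highest of all 17 animals, while the other 9 early animals lay at or below 12.35. The range among GD100 controls was 26.6-fold, against 4.40-fold among GD100 BPA animals, 4.85-fold among GD165 controls and 3.90-fold among GD165 BPA animals. Group means ran from 10.93 ± 0.86 (GD100 BPA, SD, n = 5) through 11.44 ± 1.88 (GD100 control, n = 5) and 12.43 ± 1.06 (GD165 control, n = 4) to 13.03 ± 1.04 (GD165 BPA, n = 3), and no neighbours in this order differed by more than their spread. The difference between the ages was 1.55 (SE 0.61, 95% confidence interval 0.25 to 2.84), and the adjusted p of 0.0627 missed the threshold. Without GD100 control 1 the difference was 1.95 with an adjusted p of 0.0024, so that 7 of the 10 members rose. The call on FOS thus rested on 1 animal.

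NR4A1, an orphan nuclear receptor, and IER2, a small nuclear protein, showed no difference that passed. On the NR4A1 probe used, means were 12.27 ± 0.10 in GD100 controls, 12.35 ± 0.08 in GD100 BPA animals, 12.34 ± 0.10 in GD165 controls and 12.17 ± 0.24 in GD165 BPA animals (SD, n = 5, 5, 4 and 3). The difference was -0.05 (SE 0.07, adjusted p = 0.62). The second NR4A1 probe gave 11.85 ± 0.17, 11.96 ± 0.13, 12.41 ± 0.34 and 12.55 ± 0.08 in the same order, and a difference of 0.58 (SE 0.10, adjusted p = 4.6e-04). The result for NR4A1 thus depended on the probe, the reason was not tested, and no single direction is given for the gene. IER2 averaged 12.63 ± 0.20 at GD100 and 12.60 ± 0.35 at GD165, a difference of -0.05 (SE 0.13, adjusted p = 0.83). The 95% confidence interval, -0.31 to 0.22, leaves room for a small difference in either direction.

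**Figure D2:**
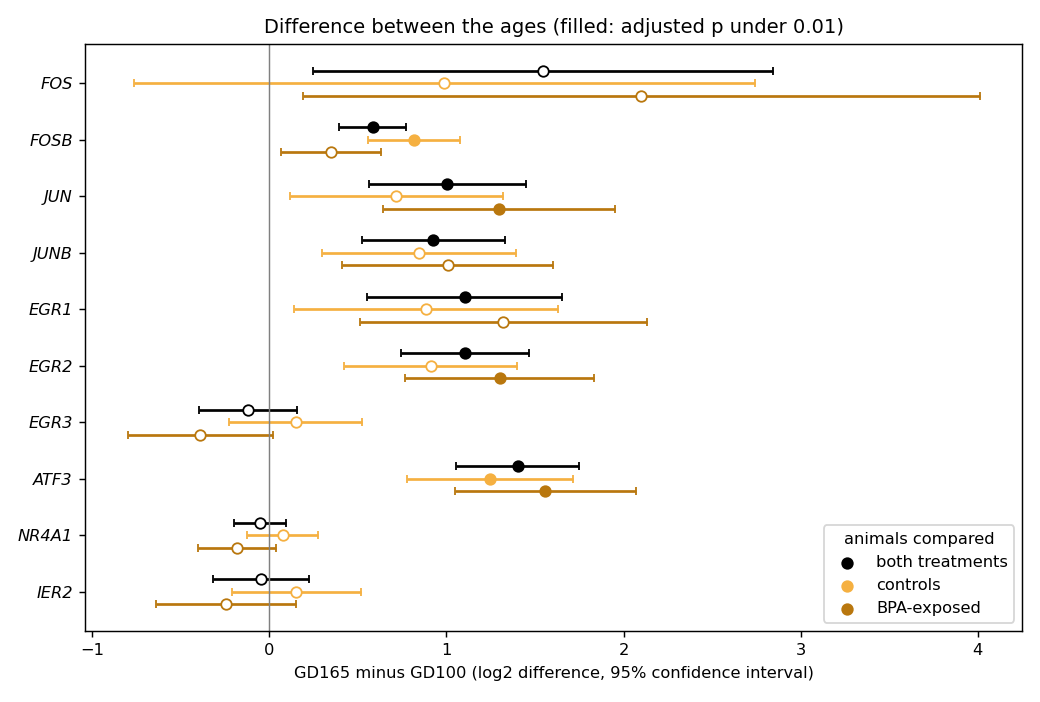
Difference between GD165 and GD100 (horizontal axis, log2 units, with 95% confidence intervals) for each gene over both treatments (black), in controls (yellow) and in BPA-exposed animals (brown); filled points have an adjusted p under 0.01. FOS has the widest intervals, ATF3 is filled in all 3 comparisons, and EGR3, NR4A1 and IER2 straddle 0.

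The difference between the ages was also examined in controls and in BPA-exposed animals alone, which have fewer animals each. In controls 2 of the 10 members passed, FOSB at 0.82 (SE 0.12, adjusted p = 2.7e-04) and ATF3 at 1.25 (SE 0.22, adjusted p = 9.9e-04), where 11.5% of all probes were called and 6.32% called higher. EGR2 just missed (0.91, adjusted p = 0.0104), and passed in 10 of 31 other settings. In BPA-exposed animals 3 of 10 passed, ATF3 at 1.56 (adjusted p = 5.2e-04), EGR2 at 1.30 (adjusted p = 0.0024) and JUN at 1.30 (adjusted p = 0.0083), where 9.68% of all probes were called and 4.82% called higher. The JUN call was lost in 13 of 31 other settings, and without GD165 BPA 5 only 1 member, ATF3, passed. FOS differed by 0.99 in controls (adjusted p = 0.45) and by 2.10 in BPA-exposed animals (adjusted p = 0.11), and neither passed. The difference between the treatments in these age effects was tested directly and passed for 0 of the 10 members and 0% of all probes.

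Over all 17 animals the ages overlapped for each of the 10 members, where 9.48% of all probes had no overlap. Among controls FOSB and ATF3 had none (19.4% of all probes), and among BPA-exposed animals JUN, JUNB, EGR1, EGR2 and ATF3 had none (27.2% of all probes).

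The arrays were hybridised on 6 slides, 4 of which carried both ages, so that the comparison could be made within a slide. On each of these 4 slides FOS, FOSB, JUN, JUNB, EGR1, EGR2 and ATF3 were higher at GD165 than at GD100. For FOS the within-slide differences were 2.93, 1.29, 2.00 and 2.10, and for ATF3 they were 1.81, 1.39, 1.79 and 0.97. For EGR1 they were 1.29, 0.70, 1.53 and 2.14, and for JUN 1.69, 0.90, 1.09 and 0.88. These rest on 1 to 3 animals per age and slide and carry no test. The slides left out carried a single age each. Those slides held GD100 control 1, the highest early animal in FOS, JUN, JUNB and EGR1. They also held GD165 control 5, the lowest term animal in FOS, JUN, EGR1, EGR2 and ATF3. The agreement between slides thus leaves out both of these animals. EGR3 and IER2 took both signs across the slides, and NR4A1 lay between 0.01 and 0.21.

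BPA exposure was then compared with vehicle at each age. At GD100 no member passed and 0% of all probes were called. The smallest unadjusted p among the members was that of FOSB, 0.049, for a difference of 0.24 (SE 0.11), and 3.79% of all probes reached an unadjusted p under 0.05. At GD165 no member passed either, and again 0% of all probes were called by limma. There EGR3 was 7.89 ± 0.29 in BPA animals (SD, n = 3) and 8.41 ± 0.32 in controls (n = 4), a difference of -0.52 (unadjusted p = 0.020, adjusted p = 0.52, limma). ATF3 differed by 0.54 in the other direction (unadjusted p = 0.048, adjusted p = 0.58), and 8.61% of all probes reached an unadjusted p under 0.05. JUN was the single member whose GD165 BPA animals all lay above the controls, narrowly (14.33 against 14.32 between the nearest animals) and with a difference of 0.45 that did not pass (adjusted p = 0.74), where 7.31% of all probes had no overlap. At GD100 the treatments overlapped for all 10 members (0.782% of all probes had no overlap). For FOS the intervals were wide, from -2.17 to 1.14 at GD100 and from -1.40 to 2.59 at GD165, and so leave room for differences of several fold in either direction. In the direct test of whether the BPA difference changed with age, FOSB had the smallest p of the members (difference of differences -0.47, unadjusted p = 0.0195, adjusted p = 0.56), where 7.83% of all probes reached an unadjusted p under 0.05.

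Animal-to-animal spread within the groups was the other quantity of interest, since animals of one group shared age, treatment and delivery. The pooled standard deviation within groups was 1.32 log2 units for FOS, higher than in 99.6% of the 16598 probes well above background on all arrays. EGR1 followed at 0.56 (92.7% of those probes lower), JUN at 0.45 (87.2%) and JUNB at 0.40 (83.6%). EGR2, ATF3, EGR3 and IER2 lay between 0.26 and 0.36. FOSB, at 0.18 (38.4%), and NR4A1, at 0.13 (19.3%), varied less than most members. The median over the 10 members was 0.35, against 0.21 over those probes.

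The size of the spread was compared between the ages through the absolute deviation of each animal from its group mean. The standard deviation was higher at GD165 for 7 of the 10 members and for 59.2% of all probes. The test passed for 0 members and for 0.0198% of all probes (adjusted p under 0.01, limma). IER2 (0.20 at GD100 and 0.34 at GD165, unadjusted p = 0.018) and NR4A1 (0.09 and 0.17, unadjusted p = 0.035) had the smallest p of the members, and 14.8% of all probes reached an unadjusted p under 0.05. EGR1 had a standard deviation of 0.35 at GD100 and 0.78 at GD165 (unadjusted p = 0.070). For FOS the order was the opposite, 1.46 at GD100 and 1.05 at GD165, with GD100 control 1 included. Without that animal the standard deviation of FOS among GD100 controls was 0.50, against 1.88 with it.

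**Figure D3:**
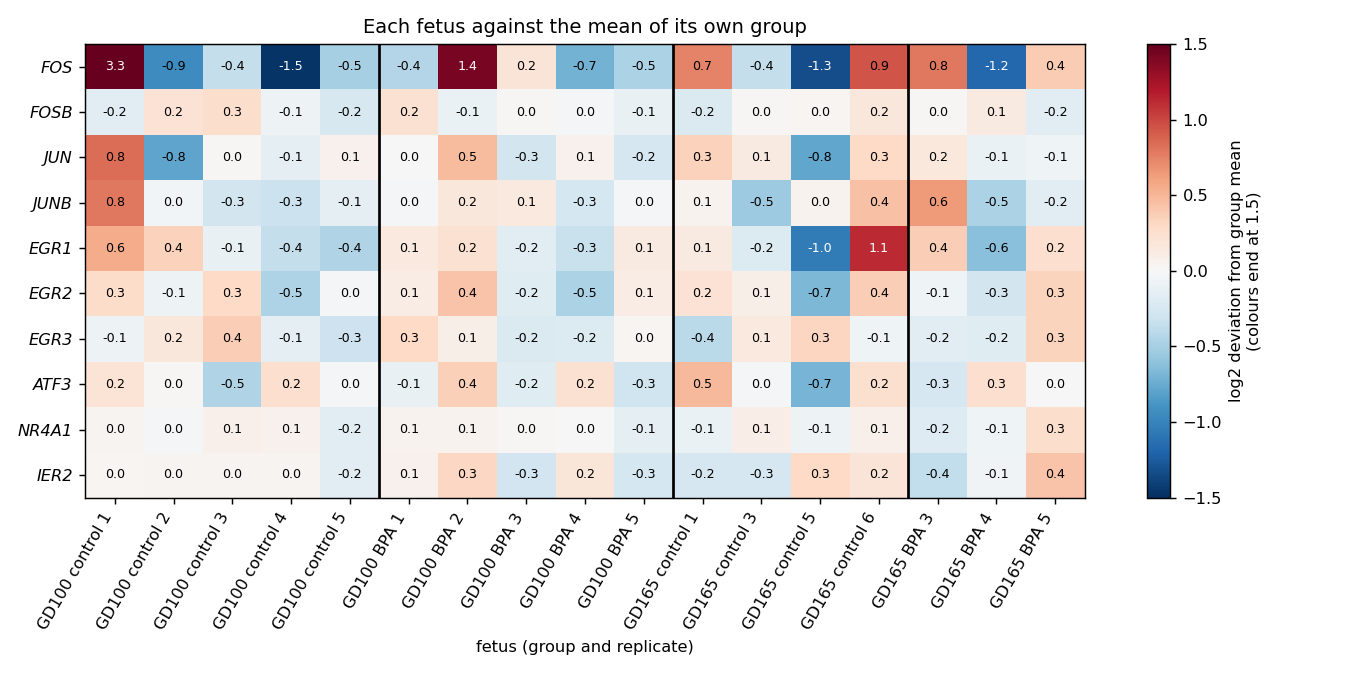
Deviation of each animal (columns, by group and replicate) from its group's mean for each gene (rows), in log2 units, printed in the cells and coloured from blue (lower) to red (higher). The FOS row has the strongest colours, GD100 control 1 is high for FOS, JUN, JUNB and EGR1, and GD165 control 5 is low for FOS, JUN, EGR1, EGR2 and ATF3.

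The animals that stood out in FOS stood out in several other members. GD100 control 1 was the highest of its group in 4 members, with deviations of 3.26 for FOS, 0.83 for JUN, 0.79 for JUNB and 0.56 for EGR1. GD100 BPA 2 was the highest of its group in 7 members, and GD165 control 6 in 5. GD165 control 5 was the lowest of its group in 5 members, with deviations of -1.33 for FOS, -1.05 for EGR1, -0.78 for JUN, -0.70 for ATF3 and -0.67 for EGR2. It was also the animal with the highest skeletal muscle level and the only one on its slide. The part of these in its low values was not tested. GD165 BPA 5, with a skeletal muscle level of 3.50, was the highest of its group in 4 members and the lowest in 1. GD165 BPA 4 was the lowest of its group in 6 members, and GD100 control 5 in 5. Without GD165 control 5, 6 members rose over both treatments and 3 in controls, EGR2 being added at 1.13.

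Deviations from the group means correlated between some members and not others. Over the 17 animals FOS correlated with JUN (r = 0.80), JUNB (0.77), EGR1 (0.68) and EGR2 (0.67), less with ATF3 (0.34), and not in the same direction with FOSB (-0.35). Without GD100 control 1 the values were 0.67 for JUN, 0.60 for JUNB, 0.72 for EGR1 and 0.79 for EGR2. EGR1 and EGR2 correlated at 0.75. EGR3, NR4A1 and IER2 correlated among themselves (0.52 to 0.62) and had r between -0.16 and 0.16 with FOS. Of all 45 pairs of members, 32 were above 0 and 11 above 0.5, with a median of 0.16. These values share the arrays and their scaling, and are given as descriptions.

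**Figure D4:**
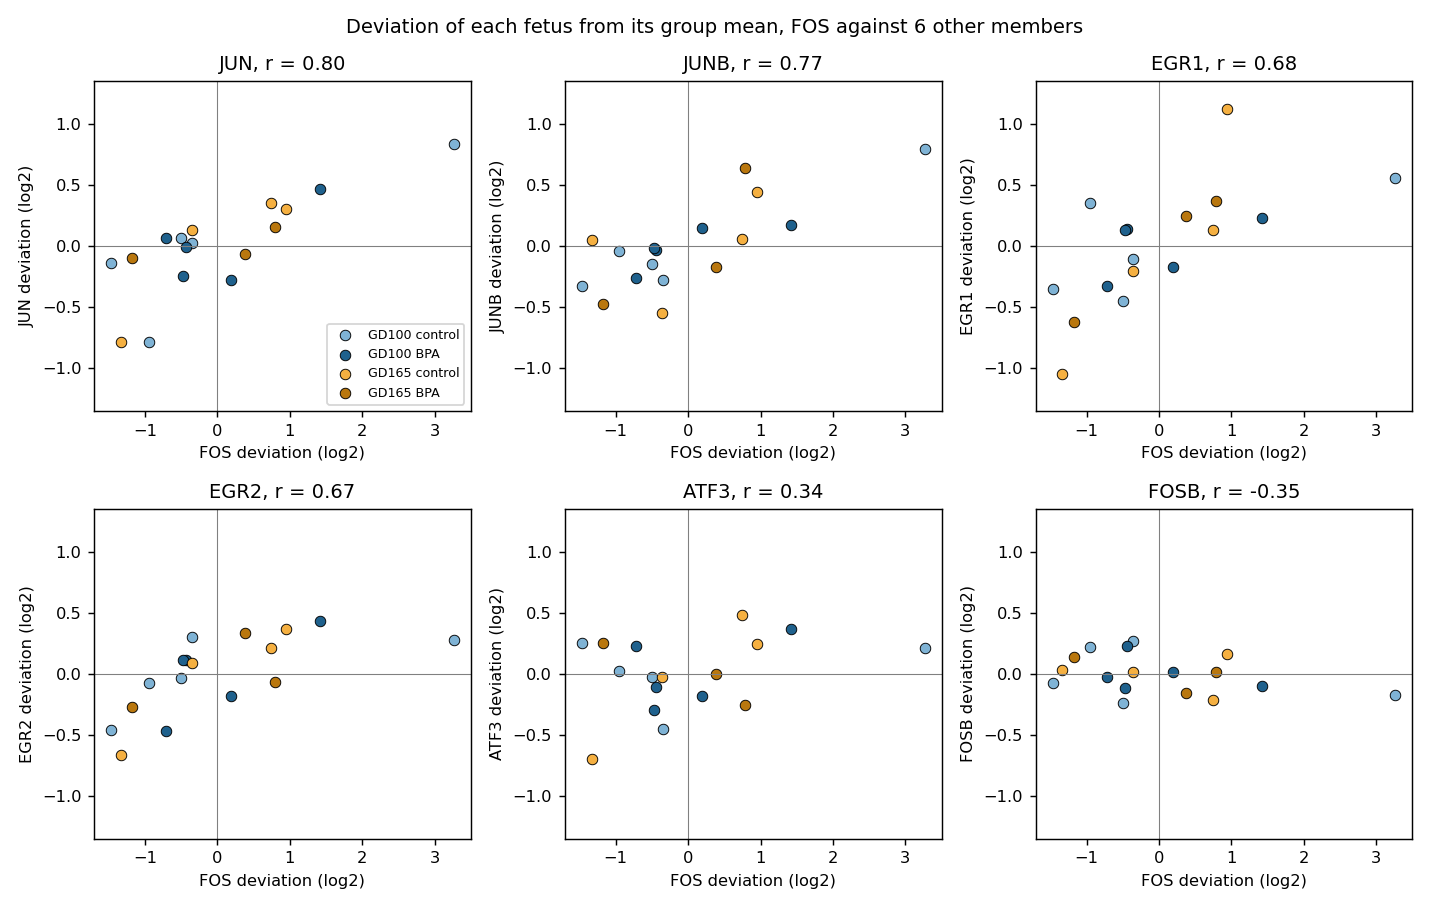
Deviation of each animal from its group mean in FOS (horizontal axis, log2) against that in 6 other members (vertical axes, log2), with 1 point per animal coloured by group. JUN, JUNB, EGR1 and EGR2 go up with FOS (r = 0.67 to 0.80), ATF3 does so less (0.34) and FOSB does not (-0.35); the point at the far right is GD100 control 1.

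Across 11530 genes well above background, 95% of correlations with FOS lay between -0.53 and 0.54. The 10 genes most like FOS by this measure were FAS (0.90), COLEC11 (0.90), ZFP36 (0.86), ITM2A (0.84), OXTR (0.83), NFATC1 (0.82), DUSP1 (0.82), CD84 (0.81), HRH1 (0.81) and LAPTM5 (0.81). ZFP36, which binds AU-rich messages and speeds their decay, and DUSP1, a phosphatase of MAP kinases, are early response genes themselves. OXTR encodes the oxytocin receptor of the myometrium and HRH1 a histamine receptor, while CD84 and LAPTM5 are expressed by leukocytes. The correlations of ITM2A and DUSP1 were nearly the same without GD100 control 1 (0.85 and 0.81), whereas that of HRH1 fell to 0.53. Those of the others fell to between 0.72 (CD84) and 0.79 (ZFP36), with FAS at 0.75 and COLEC11 at 0.73. The order of the genes thus rested in part on that animal. Of these 10, OXTR (2.85), DUSP1 (1.16), HRH1 (1.10), ZFP36 (0.94) and LAPTM5 (0.68) rose between the ages, ITM2A fell (-0.60), and FAS, COLEC11, NFATC1 and CD84 did not pass.

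Genes around the members were taken from lists by known function. In the same comparison 11.3% of all probes were called higher at GD165 and 11.1% lower. Among 39 other immediate early genes on the array, 19 rose at GD165 and 1 fell, with a median difference of 0.41. GEM, a small GTPase, rose most (2.02), followed by the matricellular proteins CYR61 (1.55) and CTGF (1.30), the repressor BHLHE40 (1.28) and the kinase SGK1 (1.09). MYC, a growth-promoting transcription factor, fell (-0.62). Of the closest relatives of the members, FOSL2 rose (0.55), whereas JUND (0.31), EGR4 (-0.10), NR4A2 (0.49) and NR4A3 (-0.01) did not pass, and FOSL1 was well above background on 2 arrays only.

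Feedback regulators mostly limit the signals and messages of the early response. Of the 25 examined, 10 rose and 2 fell (median 0.37), where 11.3% of all probes were called higher and 11.1% lower. The growth arrest genes GADD45A (1.71) and GADD45G (1.31) rose most, followed by DUSP1 (1.16), the NF-kappaB regulator NFKBIZ (0.98) and ZFP36 (0.94). The phosphatase DUSP2 (-0.74) and SPRED1 (-0.27), an inhibitor of RAS signalling, fell. Among 14 secreted early response products, 4 rose and 0 fell (median 0.32): the cytokine IL6 (1.60), the matrix protein THBS1 (1.44) and the chemokines CXCL2 (1.04) and CXCL1 (0.76). IL6 was well above background on 15 of the 17 arrays.

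The kinases and factors that act upstream of the members, and their partners, had smaller median differences than the lists above. Again 11.3% of all probes were called higher and 11.1% lower. Of 25 upstream genes 5 rose and 1 fell (median 0.11), with EGFR, the receptor for epidermal growth factor, at 0.77, the kinases RPS6KA5 (0.42), RPS6KA1 (0.36) and RPS6KA3 (0.36), the factor ELK3 (0.42), and CRTC1, a coactivator of CREB, at -0.70. The factor SRF (-0.07) did not pass. Of 11 AP-1 and EGR partners 3 rose and 0 fell (median 0.13): BATF (0.63), JDP2 (0.44) and NAB1 (0.35). Of 14 heat shock and chaperone genes 1 rose, the cochaperone BAG3 (0.40), and 2 fell, HSPD1 (-0.35) and DNAJB1 (-0.27), with a median of -0.15. The heat shock counts lay near the shares of all probes and are not read as a result about that list. The lists were compared by these counts and medians and not by a test.

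**Figure D5:**
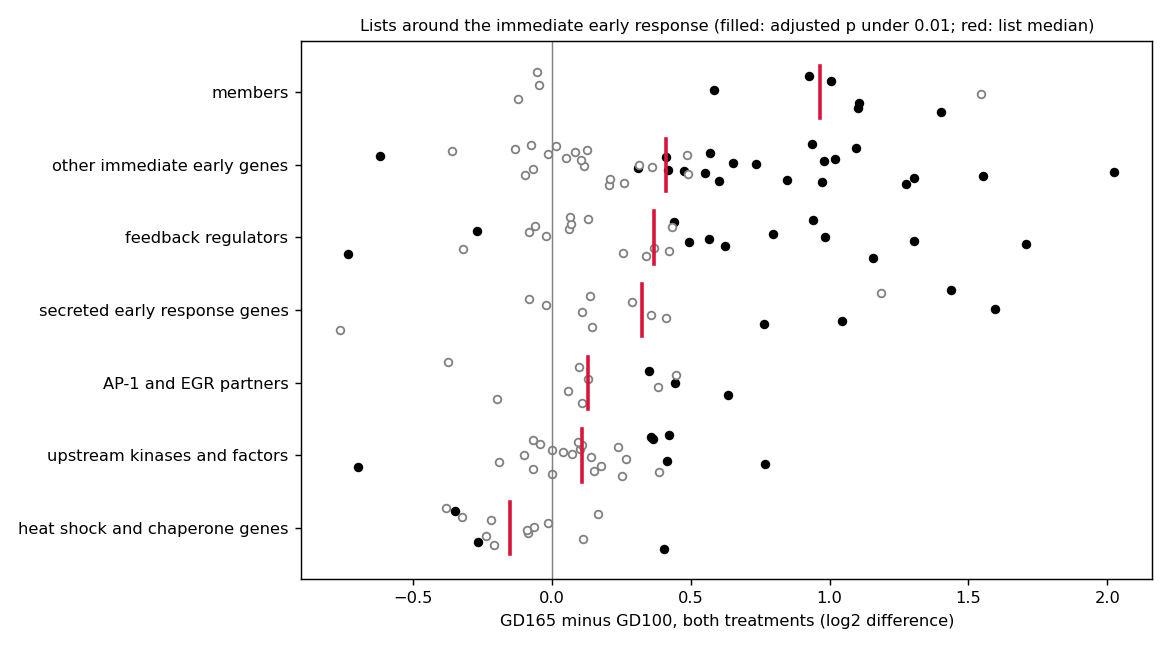
Difference between GD165 and GD100 over both treatments (horizontal axis, log2 units) for each gene of 7 lists, 1 point per gene, filled where the adjusted p was under 0.01, with the list median in red. The 10 members have the highest median (0.97), and heat shock and chaperone genes lie mostly below 0.

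Markers of other cell types moved between the ages as well. The counts below stand beside 11.3% of all probes called higher and 11.1% called lower. Of 22 leukocyte markers 8 rose and 0 fell, and their summed signal was 68655 to 87119 at GD100 and 116673 to 212204 at GD165, without overlap. PTPRC, the common leukocyte antigen, rose by 1.32, and CD3D and CD163 were well above background on no array. Endothelial markers (5 of 11 rose, 0 fell) summed to 92556 to 140830 at GD100 and 137758 to 229563 at GD165. Epithelial markers (7 of 9 rose, 0 fell) summed to 120718 to 194398 and 200710 to 321796, and smooth muscle markers (6 of 11 rose, 0 fell) to 1684460 to 2332330 and 1950540 to 2791440. Erythroid markers (1 of 17 rose, 7 fell) summed to 914618 to 1853450 and 384783 to 2379420. The rise was that of HBB (5.56). In controls alone 0 erythroid markers were called lower, with a median difference of -0.15, against 3 and -1.59 in BPA-exposed animals. The direct test of that contrast between treatments passed for 0 of them. Skeletal muscle markers (6 of 15 rose, 1 fell) summed to 298831 to 385718 and 285812 to 514487, of which DES, which is also in the smooth muscle list, made up 57.8% to 96.1%. Without DES they summed to 13485 to 23864 at GD100 and 22037 to 216906 at GD165, and SLN (5.08), CKM (4.94), MYH8 (4.81), MYH2 (4.22) and ACTA1 (3.81) rose most. The part of these cell types in the differences of the members was not tested.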

How the data were processed

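Fetal uterine RNA was hybridised to 17 1-colour Agilent rhesus arrays on 6 slides (GD100 control 5, GD100 BPA 5, GD165 control 4, GD165 BPA 3). The deposited intensity values are the processed signals of Agilent Feature Extraction 9.5, per the labels, already background-corrected by the scanner software of the authors. Spots flagged as outliers were left out, 20217 probes were each averaged over their 2 spots, and log2 signals were scaled by each array's 75th percentile (mean 12.62). The deposited well-above-background and saturation flags gave detection. The number of arrays limits the precision. The authors' own processed table was not used.

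All groups were fitted together with limma 3.58.1 (R 4.3.3), with Benjamini-Hochberg adjustment over all probes and a threshold of 0.01, as in the study. The study itself used an error-weighted analysis of variance. The spread between animals was tested with the same fit on absolute deviations from group means, scaled for group size. Scripts were tested on simulated data. Alternatives were normexp background correction (offset 50), other scalings, a filter (17516 probes kept), a trended robust prior, error-model weights, a looser threshold (0.05), blocks for slide or for replicate number, averaging a gene's probes, and leaving out each animal. Figures used matplotlib.

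The members and lists were chosen with earlier results of these data known. Named genes were the 10 members, up to 5 rises and 5 falls per list among those called over both treatments (largest first), and the 10 genes most like FOS. Relatives of the members, PTPRC, SRF and genes under background were named after their values were seen. Some listed genes carry older names on the array. The position cells of the array name another chromosome than the RefSeq table of the macaque for 4 of the 10 members, so no coordinates are given. Arrays are labelled as separate animals.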

Additional observations from a re-analysis of the deposited data

Results flagged for a closer look

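Among 30 sets of 4 or 5 animals examined (10 members in 3 groups), 4 had an animal far from the rest by Dixon's criterion, which chance alone reaches in about 1 of 20 sets. FOS in GD100 control 1 stood at 14.71, and the nearest animal of its group at 11.09. JUNB in the same animal stood at 7.70, and the nearest at 6.87. NR4A1 in GD100 BPA 5 was the lowest of its group at 12.21, with the nearest at 12.36. IER2 in GD100 control 5 was the lowest at 12.42, with the nearest at 12.61. The sources of these values were not tested.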

How the results depend on the processing

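Age and delivery cannot be told apart, groups held 3 to 5 animals, and the tests of spread and of BPA may miss differences of moderate size. The count of members past the threshold over both treatments was 5 to 7 with 1 animal left out, 7 without GD100 control 1 (FOS added) and 5 without GD165 BPA 3 or BPA 5 (EGR1 lost). In controls it was 2 to 3, and in BPA-exposed animals 1 to 4, with 1 without GD165 BPA 5. With slide as a fixed block the count in BPA-exposed animals was 1. At a threshold of 0.05 it was 4 in controls and 5 in BPA-exposed animals, where 21.2% and 21% of all probes passed. The spread test passed for 0 to 1 members with 1 animal left out, the 1 being IER2 without GD165 BPA 4. In that setting 614 of all probes passed, and the IER2 call is not read as a result, for the reason given at the end of this paragraph. Member counts for BPA and for the interaction were 0 in all settings run. Of all probes, 4531 (both treatments), 2328 (controls) and 1956 (BPA-exposed) were called between the ages, and 2980, 1233 and 512 with slide as a fixed block, 1172 in controls and 1176 in BPA-exposed animals with only the compared groups fitted, 1531 in controls without scaling, 994 and 1181 in BPA-exposed animals without GD165 BPA 4 and BPA 5, and 1512 in controls without GD165 control 6. The spread test called 4 probes, 9 to 105 with normexp, quantile normalization or the trended prior, and 0 to 614 with 1 animal left out. Counts of 215 to 614 came from leaving out a GD165 BPA animal, and other animals gave 0 to 9. Without a GD165 BPA animal that group is a pair, whose absolute deviations from their mean are equal by construction. Such a pair adds nothing to the error of the spread test, which then passes too easily, so these counts are not read as results.

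Directions turned for 3 members near 0. NR4A1 was 0.029 over both treatments without scaling, 0.071 with slide as a fixed block and 0.26 (adjusted p = 0.0093, past the threshold) as the mean of its probes, and in BPA-exposed animals 0.017 with the slide block and 0.20 as the mean. IER2 was 0.036 without scaling, 0.00858 with the slide block and -0.15 to 0.046 with 1 animal left out (positive without GD165 BPA 3) over both treatments, -0.059 in controls and 0.076 in BPA-exposed animals with the slide block. EGR3 in controls was -2.0e-04 with the slide block. FOS, FOSB, JUN, JUNB, EGR1, EGR2 and ATF3 were higher at GD165 in every age comparison and setting run. The cause of the changes was not tested.

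Replicate numbers did not pair the animals: deviations of same-numbered animals correlated at -0.17 to 0.16 (median 0.03) over 19 pairs, 3 of them above 0.1. With the replicate block 5 members passed over both treatments (JUN was 0.96, adjusted p = 0.0101), 2 in controls (958 of all probes) and 3 in BPA-exposed animals.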
